A study of Mus musculus with 16 samples.

Results

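Genes for the nuclear-encoded subunits of the mitochondrial respiratory chain were examined in the cerebellum of mice lacking Npc1. Members were the array genes whose name in the files began with Nduf (complex I), was Sdha, Sdhb, Sdhc or Sdhd (complex II), or began with Uqcr (complex III), Cox4 to Cox8 (complex IV) or Atp5 (complex V, the ATP synthase). There were 82 such genes, of which 80 had signal well above background on 4 or more of the 8 arrays, and they were analysed among 17984 genes tested. These 80 comprised 37 genes of complex I, 4 of complex II, 7 of complex III, 16 of complex IV and 16 of complex V. All 80 were well above background on all 8 arrays, so the filter on dim signals removed none of them in either genotype. Only Cox4i2, a lung and oxygen-responsive form of subunit 4, and Cox8c, a testis form of subunit 8, were not kept, and they were above background on 0 arrays. A name does not make a subunit: Cox4nb is called Emc8 in RefSeq and belongs to a complex of the endoplasmic reticulum, Ndufaf1 is an assembly factor, and Atp5s is now named Dmac2l, an ATP synthase coupling factor.

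The mice were 3 weeks old, on a BALB/c background, and carried the Npc1m1N allele (strain BALB/cNctr-Npc1m1N/J). Homozygous mutants (Npc1-/-, 4 mice) were bred from heterozygous parents and compared with wild-type mice (Npc1+/+, 4 mice), with no other treatment named. Npc1 exports cholesterol from the lysosome, and mice without it are a model of Niemann-Pick disease type C in which every cell of the animal carries the mutation. RNA of the whole cerebellum was hybridised to Agilent one-colour arrays, 4 per genotype, and the labels do not say which mouse was on which array.

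The respiratory chain sits in the inner mitochondrial membrane. Complexes I and II pass electrons from NADH and succinate to ubiquinone, complex III passes them on to cytochrome c and complex IV to oxygen, while complexes I, III and IV pump protons that drive ATP synthesis by complex V. Most subunits are encoded in the nucleus and a small set in mitochondrial DNA, and in neurons the chain supplies most of the ATP used for ion pumping and synaptic work.

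Nuclear respiratory chain genes are known targets of the transcription factors NRF1, GABP (an ETS factor), the estrogen-related receptors and YY1, so the promoters of the members were searched for 4 fixed motifs. RefSeq windows of build GRCm38.p6, reaching from 250 bases before to 50 bases after the start, were found for 67 of the 80 members, in 72 windows. Members with no matched window included Atp5a1, Cox4i1, Cox4nb, Cox6a2, Cox6c, Ndufa2, Ndufb9, Ndufs1, Sdhc, Uqcrb, Uqcrc2 and Uqcrq. On either strand, the NRF1 core GCGCATGC was in 10 of the 72 windows (13.9%) and in 2.71% of all 32851 windows. For the ETS and GABP core CCGGAAG the shares were 17 windows (23.6%) and 8.86%, for the YY1 site AAGATGGCG 7 windows (9.72%) and 1.40%, and for the estrogen-related receptor site TCAAGGTCA 2 windows (2.78%) and 0.423%. At least 1 of the motifs was in 29 member windows (40.3%) and in 12.5% of all windows. A match is a description of the letters and not a bound site. The 250 bases upstream of 4 starts are printed 5′ to 3′ with motif matches in capitals: Cox8b, the member with the largest difference between genotypes and with none of the 4 motifs in its window; Cox6a1, a general complex IV subunit with the smallest difference; Ndufa11, the lowest member of complex I; and Sdhd, the lowest of complex II.
Cox8b, chr7:140900447-140900696, minus strand: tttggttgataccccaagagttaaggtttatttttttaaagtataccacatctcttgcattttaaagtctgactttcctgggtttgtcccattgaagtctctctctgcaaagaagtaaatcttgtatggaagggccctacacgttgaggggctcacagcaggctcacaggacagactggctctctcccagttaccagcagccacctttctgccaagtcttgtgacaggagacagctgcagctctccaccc
Cox6a1, chr5:115348959-115349208, minus strand: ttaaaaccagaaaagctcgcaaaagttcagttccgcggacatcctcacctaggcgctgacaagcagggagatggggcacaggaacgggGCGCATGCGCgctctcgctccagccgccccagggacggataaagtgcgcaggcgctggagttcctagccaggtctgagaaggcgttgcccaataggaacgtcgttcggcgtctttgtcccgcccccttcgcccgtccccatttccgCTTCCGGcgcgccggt
Ndufa11, chr17:56717512-56717761, plus strand: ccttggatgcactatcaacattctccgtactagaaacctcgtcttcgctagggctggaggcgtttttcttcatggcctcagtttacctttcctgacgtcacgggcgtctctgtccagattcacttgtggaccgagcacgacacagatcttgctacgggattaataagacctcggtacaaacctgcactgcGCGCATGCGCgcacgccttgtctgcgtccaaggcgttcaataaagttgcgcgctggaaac
Sdhd, chr9:50603850-50604099, minus strand: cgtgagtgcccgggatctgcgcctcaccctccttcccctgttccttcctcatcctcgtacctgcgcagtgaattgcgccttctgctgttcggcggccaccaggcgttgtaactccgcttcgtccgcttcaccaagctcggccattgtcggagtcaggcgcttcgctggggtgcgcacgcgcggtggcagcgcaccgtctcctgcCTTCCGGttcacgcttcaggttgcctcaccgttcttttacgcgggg
In Cox6a1 and Ndufa11 the capitals beginning GCGC are the NRF1 core read on both strands, which overlap to form a palindrome. The capitals CTTCCGG in Cox6a1 and Sdhd are the ETS and GABP core on the opposite strand. The Sdhd window also held an estrogen-related receptor site, which does not lie within the 250 printed bases.

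Between 22182 and 28137 of the 41174 probes on each array were well above background, and the number of arrays, 4 per genotype, limits the precision of every comparison. Npc1 itself had log2 levels of -2.53, -2.44, -2.32 and -2.60 in the mutants and -0.52, -0.40, -0.64 and -0.37 in the wild types, a difference of -1.99 (limma adjusted p 0.00045), so the arrays matched their labels. A level is log2 of the signal over the 75th percentile signal of the same array, and values are given in the order of replicates 1 to 4. Defining markers of cerebellar cells were present on all arrays, with 12 of 12 granule cell and 12 of 12 Purkinje cell markers well above background throughout. One wild-type array stood apart: on the first principal component of all genes, which held 47.0% of the variance, wild-type replicate 3 lay at 73.0 and the other 7 arrays between -36.5 and 23.0.

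Respiratory chain genes had slightly lower levels in Npc1-/- cerebellum as a group, and none passed the test alone. Of the 80 members 77 had a mean level below wild type, against 53.4% of all genes tested. The median log2 difference (Npc1-/- minus wild type) over the members was -0.14, a percent difference of -9.09%, against -0.02 over all genes. The 5 complexes had nearly equal medians, at -0.14 for complexes I, II, IV and V and -0.13 for complex III. The 3 members with a higher mean in the mutants were Cox8b, at 0.81, Cox6a2, at 0.24, and Atp5b, at 0.04. In limma's fit over all genes, 0 members passed an adjusted p of 0.05, where 0.767% of the genes tested did (138 genes, 132 of them higher and 6 lower). Before adjustment, 2 members had a p under 0.05, Cox6c and Cox8b, against 7.40% of all genes. Members were not called under any of the 19 other settings of processing and array choice either. Such p-values reflect only the spread among the 8 arrays. For 74 of the 80 members the 95% interval lay within a 1.5-fold difference in either direction, and the exceptions were Cox8b, Ndufa11, Ndufb5, Uqcrb, Cox7a2 and Atp5j2.

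**Figure D1:**
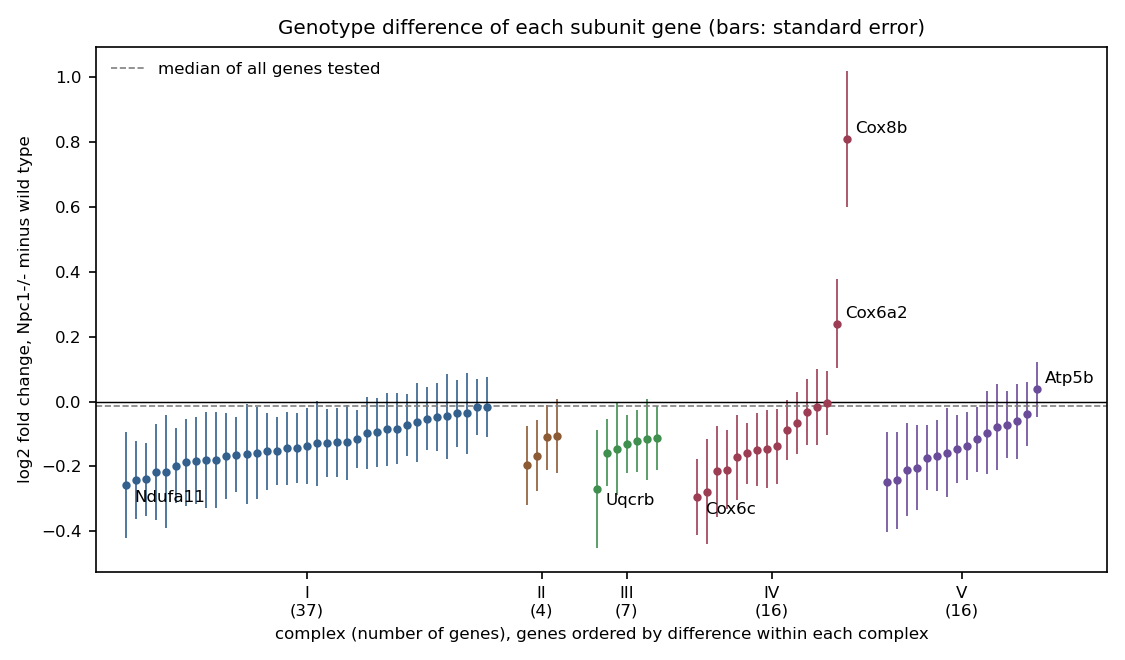
Log2 fold change of each of the 80 respiratory chain genes, Npc1-/- minus wild type (y axis), ordered within each complex (x axis), with bars for the standard error of the limma fit and a dashed line at the median of all genes tested. All points but Cox8b, Cox6a2 and Atp5b lie below 0, and most lie between -0.29 and 0.

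Much of the common difference came with a single array. Relative to each gene's mean over the 8 arrays, the median member stood at -0.11, -0.13, -0.07 and 0.05 in the 4 mutants and at -0.03, -0.03, 0.30 and 0.03 in the 4 wild types. Wild-type replicate 3 was thus far above the other arrays, while mutant replicate 4 lay above all the remaining wild types, so the genotypes overlapped. Wild-type replicate 3 held the highest level of 67 of the 80 members (83.8%), against 30.8% of all genes tested. The lowest level fell on a mutant array for 71 members (88.8%), against 48.8% of all genes. Without wild-type replicate 3 the member median was -0.07, with 67 members lower and 13 higher. Within the 3 slides that held both genotypes, the member median was -0.39 on slide 2, which carried wild-type replicate 3, and -0.01 and -0.04 on slides 3 and 4. Each of these rests on 1 wild-type array. Over all genes the same slide values were -0.03, 0.01 and 0.01. The spread between the wild types exceeded that between the mutants for 61 of the 80 members. The median SD of the members was 0.17 in the wild types and 0.11 in the mutants. Over all genes tested it was also larger in the wild types, at 0.21 against 0.18.

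**Figure D2:**
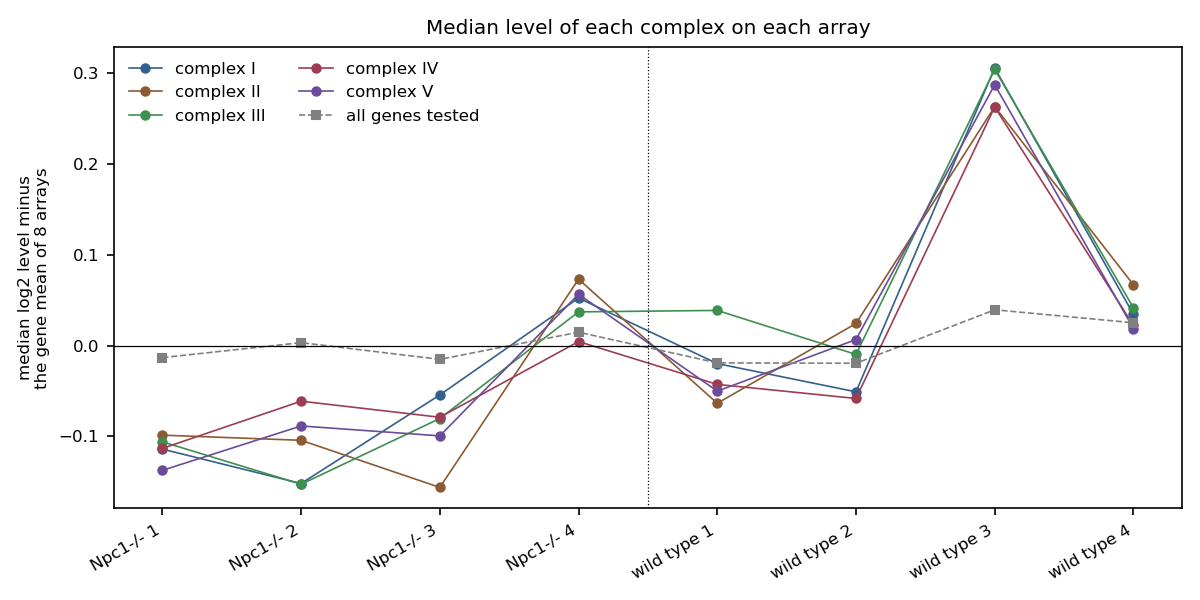
Median log2 level of the genes of each complex on each array, after subtracting each gene's mean over the 8 arrays (y axis), for the 4 Npc1-/- and 4 wild-type replicates (x axis), with all genes tested as dashed squares. All 5 complexes peak on wild-type replicate 3, while mutant replicates 1 to 3 lie lowest. Mutant replicate 4 lies above the other wild types for complexes I, II and V and within their range for complexes III and IV.

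The scaling of the arrays set the size of the difference as well. Quantile normalization gave a member median of -0.07 with 13 members higher, normexp background correction with quantile normalization -0.07 with 15 higher, and centring each array on its median -0.25 with 2 higher. Centring on the median also moved all genes, to a median of -0.12, so that the members lay 0.12 below all genes in that setting as in the reported one.

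**Figure D3:**
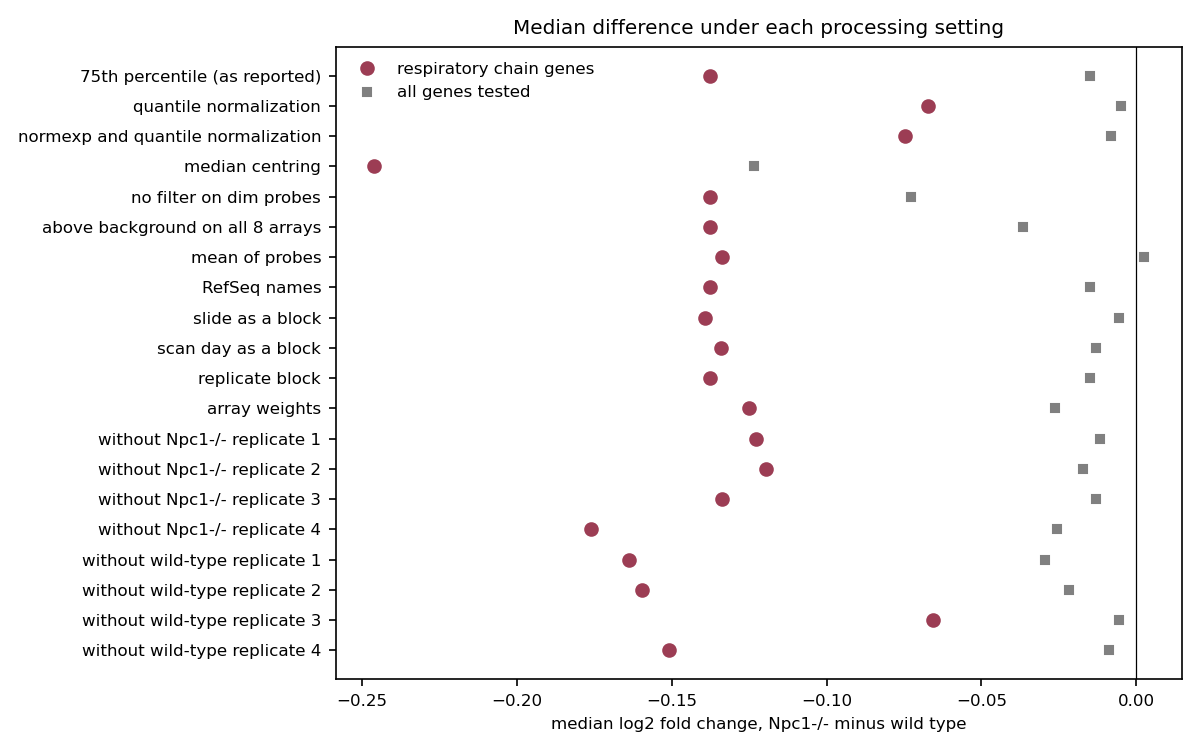
Median log2 fold change, Npc1-/- minus wild type (x axis), over the respiratory chain genes (circles) and over all genes tested (squares) under each processing setting and with each array left out (y axis). The members' median is below that of all genes in every setting shown, and it is nearest to 0 without wild-type replicate 3 and under quantile normalization.

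Markers of the cell types in the tissue were read on the same arrays, where 53.4% of all genes had lower means, 0.767% passed the adjusted threshold and 7.40% had an unadjusted p under 0.05. All 12 oligodendrocyte markers had lower means in the mutants, with a median difference of -0.58 and a summed signal, relative to the 75th percentile, of 254 to 309.8 in the mutants and 338 to 447 in the wild types. None of the 12 passed the limma test, where the lowest adjusted p was 0.0768, and 10 had an unadjusted p under 0.05. All 12 microglia and macrophage markers had higher means, with a median of 1.18 and summed signals of 29.2 to 37.7 against 8.20 to 12.1, and 6 passed the test. Granule cell markers (12 of 12 lower, median -0.21, sums of 266 to 329 against 301 to 359) and Purkinje cell markers (12 of 12 lower, median -0.24, sums of 391 to 433 against 414 to 557) overlapped between genotypes, with 0 of either list past the limma threshold and 2 and 0 at an unadjusted p under 0.05. Wild-type replicate 3 held the highest level of 9 of the 12 Purkinje cell markers and 7 of the 12 granule cell markers. The other lists had genes of both signs and 0 past the limma threshold (1 astrocyte gene and 0 of the others at an unadjusted p under 0.05). Their medians were 0.03 for astrocytes and Bergmann glia (7 higher, 5 lower), 0.0001 for interneurons (4 higher, 3 lower) and -0.06 for endothelium (3 higher, 5 lower). They were -0.0034 for choroid plexus (3 higher, 4 lower) and 0.24 for erythroid cells (2 higher, 1 lower). Choroid plexus markers varied widely between mutants. Relative to each gene's mean, their array medians were 0.22, 0.94, -1.77 and 0.50 in the mutants and -0.21, 0.36, -0.19 and 0.16 in the wild types. Their summed signals were 2.29 to 12.5 in the mutants and 5.88 to 9.14 in the wild types. The part of these cell types in the respiratory chain values was not tested, and in whole cerebellum fewer cells of a type and less RNA per cell cannot be told apart.

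In complex I all 37 genes had a lower mean in the mutants, with differences of -0.26 to -0.02. The 7 core subunits, which carry out electron transfer, had a median of -0.13. The 29 accessory subunits, which support assembly and stability, had a median of -0.14. Ndufa4, which is now counted with complex IV, is included in these 29 by its name. Ndufv1, the subunit that binds NADH, was at 5.23, 5.24, 5.16 and 5.37 in the mutants and 5.19, 5.31, 5.38 and 5.19 in the wild types. The 2 ranges nearly coincided, with a log2 difference of -0.02 ± 0.09 (SE). Ndufs1, the large iron-sulfur subunit, differed by -0.13 ± 0.12. Its highest array was wild-type replicate 3, and its groups overlapped.

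Ndufa1, an X-linked accessory subunit of the membrane arm that is needed for assembly, was the only complex I member whose genotypes did not overlap. It was at 5.38, 5.33, 5.45 and 5.39 in the mutants and at 5.50, 5.51, 5.96 and 5.55 in the wild types. The 4 mutants lay just below the 3 ordinary wild types, and replicate 3 alone lay far above. Its difference of -0.24 ± 0.12 had an adjusted p of 0.753 in limma, and without wild-type replicate 3 it was -0.13. Of all genes tested, 1.95% had 4 mutants below 4 wild types, and 2 of the 80 members did, Ndufa1 and Atp5j2. A second Ndufa1 probe gave -0.24 too, but its groups overlapped. On that probe mutant replicates 3 and 4 were at 4.84 and 4.90, above wild-type replicate 2 at 4.82. Ndufa11, a membrane-arm subunit, had the lowest difference of the complex, at -0.26 ± 0.16, or -0.14 without wild-type replicate 3. Its levels were 1.02, 1.35, 1.46 and 1.60 in the mutants and 1.50, 1.43, 1.96 and 1.56 in the wild types, so mutant replicate 4 exceeded 3 of the wild types. Ndufa9, a subunit at the junction of the 2 arms, differed by -0.06 ± 0.12, Ndufa10 by -0.02 ± 0.09, and Ndufa4, which is now counted with complex IV, by -0.17 ± 0.13, or -0.08 without wild-type replicate 3.

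All 4 genes of complex II, succinate dehydrogenase, had lower means in the mutants. Sdha, the flavoprotein that oxidises succinate, was at 2.95, 2.90, 2.67 and 2.91 in the mutants and at 2.75, 3.02, 3.13 and 2.96 in the wild types, a difference of -0.11 ± 0.11. Another Sdha probe gave 0.08 and a probe with a clone name that RefSeq matches to Sdha gave 0.25 ± 0.25, both in the opposite direction. The mean of the probes named Sdha gave -0.01. Sdhb, the iron-sulfur subunit, was at 4.05, 4.07, 4.05 and 4.23 against 4.11, 4.16, 4.49 and 4.31, a difference of -0.17 ± 0.11. Here 3 mutants lay below all wild types, and mutant replicate 4 was above 2 of them. The membrane anchors Sdhc and Sdhd differed by -0.11 ± 0.10 and -0.20 ± 0.12. Sdhd was at 3.34, 3.50, 3.45 and 3.69 in the mutants and 3.61, 3.57, 3.96 and 3.63 in the wild types, again with replicate 3 on top and with mutant replicate 4 inside the wild-type range. Limma's adjusted p ran from 0.753 to 0.778 over the 4 genes.

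All 7 genes of complex III, the cytochrome bc complex, had lower means as well. The core proteins Uqcrc1 and Uqcrc2, which form the matrix-facing part, differed by -0.12 ± 0.12 and -0.11 ± 0.10. Uqcrfs1, the Rieske iron-sulfur protein, was at 3.56, 3.68, 3.65 and 3.77 in the mutants and 3.87, 3.72, 3.73 and 3.86 in the wild types. It is one of 13 members whose highest array was not wild-type replicate 3, and its difference was -0.13 ± 0.09, or -0.15 without that replicate. Uqcrb, a small subunit near the ubiquinone site, had the lowest value of the complex. Its levels of 3.36, 3.16, 3.61 and 3.20 against 3.60, 3.21, 4.03 and 3.58 gave -0.27 ± 0.18, and the difference was -0.87 on the slide with wild-type replicate 3 but 0.08 and 0.01 on the others. Uqcr, the smallest subunit (Uqcr11 in RefSeq), differed by -0.16 ± 0.10. The gene of cytochrome c1, the subunit that hands electrons to cytochrome c, carries the name Cyc1 and lies outside the name rule. Its difference was -0.16 ± 0.11, and that of cytochrome c (Cycs) was -0.16 ± 0.12.

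Complex IV, cytochrome c oxidase, held the widest range of differences. Its 11 general subunits all had lower means, with a median of -0.15. Cox4i1, the large regulatory subunit, was at 6.95, 6.97, 6.83 and 7.19 in the mutants and 7.04, 7.13, 7.34 and 6.99 in the wild types, a difference of -0.14 ± 0.12 with overlapping groups. Cox5a and Cox5b, early partners in assembly, differed by -0.09 ± 0.09 and -0.07 ± 0.10. Cox6c had the lowest value of all 80 members. It was at 5.41, 5.47, 5.46 and 5.63 in the mutants and at 5.88, 5.50, 5.94 and 5.84 in the wild types. Only wild-type replicate 2 fell among the mutants, and the other 3 lay above all of them. The difference was -0.29 ± 0.12 (95% interval -0.56 to -0.03), a percent difference of -18.4%, with a limma adjusted p of 0.605. Without wild-type replicate 3 it was -0.24, and within slides 2, 3 and 4 it was -0.47, 0.02 and -0.41.

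Tissue isoforms of complex IV were measured beside their general forms. In several subunits a general form is used in most tissues and another form mainly in heart and skeletal muscle (Cox6a2, Cox7a1, Cox8b) or testis (Cox6b2). Cox8b, the muscle form of subunit 8, was at -1.24, -0.84, -1.78 and -1.26 in the mutants and at -2.47, -1.92, -1.91 and -2.05 in the wild types. All 4 mutants lay above all 4 wild types, with mutant replicate 3 closest to them. Of all genes tested, 2.96% had 4 mutants above 4 wild types, and Cox8b was the only one of the 80 members. Its signal was 1.75-fold higher (log2 0.81 ± 0.21, 95% interval 0.33 to 1.29), with an unadjusted p of 0.0044 and a limma adjusted p of 0.227. Over the other settings the adjusted p ran from 0.0564 with array weights to 0.693 with median centring, and the difference from 0.55 to 0.97. The difference had the same direction on each slide, at 1.07, 0.67 and 0.70. Cox8a, its general counterpart, was at 7.00, 7.10, 7.01 and 7.11 in the mutants and 7.08, 7.23, 7.39 and 7.15 in the wild types, a difference of -0.16 ± 0.10 with overlapping groups.

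The other tissue isoforms had differences of either sign. Cox6a2 was at -2.69, -2.83, -2.87 and -2.35 in the mutants and -3.03, -3.05, -2.84 and -2.78 in the wild types, a difference of 0.24 ± 0.14 (limma adjusted p 0.753). Its groups overlapped, and the highest value came from mutant replicate 4. Its general counterpart Cox6a1 had the smallest difference of all members, at -0.0038 ± 0.10 (95% interval -0.23 to 0.22). Cox7a1 was at 0.58, 0.62, 0.47 and 0.66 against 0.58, 0.72, 1.19 and 0.70, a difference of -0.21 ± 0.14 that was -0.08 without wild-type replicate 3. Its counterpart Cox7a2 differed by -0.28 ± 0.16, or -0.12 without that replicate, and Cox7a2l, which joins complexes III and IV into supercomplexes, by -0.02 ± 0.12. Cox6b2 and Cox6b1 differed by -0.21 ± 0.12 and -0.15 ± 0.11. Of 10 skeletal muscle markers (contractile proteins and the like), 7 were measured and 3 of these were above background on all 8 arrays. Myh2 was above background on 3 mutant arrays and 1 wild-type array, Tnnt3 on 4 and 2, and Mylpf and Actn3 on 4 and 3. Of the 7, 6 had higher means in the mutants and 0 passed the limma test (2 had an unadjusted p under 0.05). The median difference was 0.35, the value of Tnnt3. Myh2 and Tnnt3 passed the filter mainly through mutant arrays, and Myh2 was 1 of the 2 with an unadjusted p under 0.05. Both counts and the median thus follow partly from the filter. Over all genes 0.767% passed, 7.40% had an unadjusted p under 0.05, and 53.4% had lower means. Their summed signal was 0.663 to 0.933 in the mutants and 0.628 to 0.703 in the wild types, and their part in the values of Cox8b and Cox6a2 was not tested. The fast troponin gene Tnni2 had a difference of 0.83 ± 0.28 (limma adjusted p 0.473), while actin alpha of skeletal muscle, Acta1, had one of 0.06 ± 0.12.

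**Figure D4:**
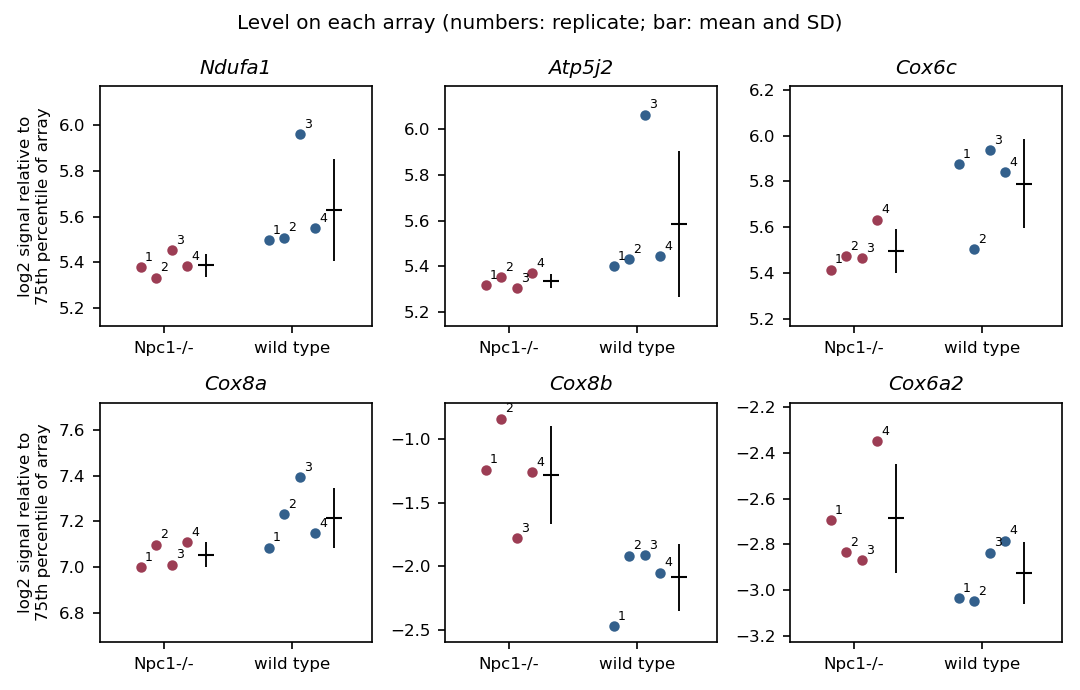
Log2 level over the 75th percentile signal of each array (y axis, scaled separately in each panel) for 6 genes in Npc1-/- and wild-type cerebellum (x axis), with a numbered point per replicate and bars for mean and SD. The groups of Ndufa1, Atp5j2 and Cox8b do not overlap, and for the first pair the wild-type mean is raised by replicate 3.

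In complex V, 15 of the 16 genes had lower means. Atp5b, the catalytic beta subunit, was the exception, at 6.93, 6.88, 6.99 and 7.06 in the mutants and 6.97, 7.00, 6.89 and 6.86 in the wild types. These groups overlapped, and the difference was 0.04 ± 0.09. It depended on the probe, since 2 other Atp5b probes gave -0.19 and -0.13. Atp5a1, the alpha subunit beside it in the catalytic head, differed by -0.12 ± 0.10. Atp5c1, the rotating gamma subunit, was at 6.44, 6.49, 6.47 and 6.69 against 6.60, 6.56, 6.92 and 6.68, a difference of -0.17 ± 0.11. Mutant replicate 4 again lay within the wild types, and the other mutants lay below them.

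The 10 genes of the stalk and the membrane part had a median of -0.15, all of them lower. Atp5j2, subunit f of the membrane part, was at 5.32, 5.35, 5.31 and 5.37 in the mutants and at 5.40, 5.43, 6.06 and 5.44 in the wild types. The groups did not overlap, but 3 of the wild types were within 0.1 of the highest mutant, and only replicate 3 was farther away. Its difference of -0.25 ± 0.15 (limma adjusted p 0.753) was -0.09 without that replicate. Atp5h, subunit d of the stalk, was at 5.53, 5.85, 5.73 and 5.62 against 5.84, 5.59, 6.23 and 6.05, a difference of -0.24 ± 0.15 with overlapping groups, or -0.14 without wild-type replicate 3. The ring of c subunits is encoded by Atp5g1, Atp5g2 and Atp5g3, which yield the same mature protein. These 3 genes differed by -0.10 ± 0.13, -0.08 ± 0.13 and -0.04 ± 0.10.

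Probes of one gene usually gave differences of one sign. Of 22 members with more than 1 probe above background, 17 had probes of one sign and 5 did not (Atp5b, Cox4nb, Cox5a, Sdha and Uqcrq). A further 11 names outside the rule that RefSeq assigns to subunits or factors of these complexes were measured, and 9 had lower means with a median of -0.13. Higher means came from Ndufaf7, an assembly factor, at 0.07 ± 0.08, and from the Sdha clone probe above. Among the lower ones were Uqcr10 at -0.13 ± 0.15, Ndufv3 at -0.15 ± 0.14 and Atp5mpl, a small ATP synthase protein, at -0.22 ± 0.13. Of the 13 subunits encoded in mitochondrial DNA, 0 were among the genes tested, so nuclear and mitochondrial genes of the chain were not compared.

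Other mitochondrial genes were described beside the subunits, and in limma's fit 0 genes of any of these lists passed the adjusted threshold in either direction. Before adjustment, a p under 0.05 was reached by 1 assembly factor, 1 transport gene and 2 cytosolic ribosome genes. Among electron carriers and other respiratory enzymes 1 gene reached it, Prodh, at 0.45 ± 0.17. The other lists had 0 such genes, against 7.40% of all genes (0.767% after adjustment). Of 37 assembly factors tested, 31 had lower means, with a median of -0.11. Values of the mitochondrial ribosome were close to those of the subunits: 77 of 78 genes had lower means, the median was -0.13, and 68 of them peaked on wild-type replicate 3. Genes of the cytosolic ribosome also peaked there, 68 of 84, but their median was -0.07, with 72 lower. The tricarboxylic acid cycle had 12 of 14 genes lower (median -0.07), the pyruvate dehydrogenase list 10 of 11 (median -0.15) and glycolysis 12 of 17 (median -0.06). Of 18 regulators of mitochondrial biogenesis, 13 had lower means with a median of -0.05. Ppargc1a, the coactivator that drives many respiratory genes, was at 2.05, 1.26, 2.28 and 1.40 in the mutants and 1.91, 1.51, 0.83 and 1.56 in the wild types. Its spread exceeded its difference of 0.30 ± 0.29, and wild-type replicate 3 was the lowest array. Nrf1 differed by -0.03 ± 0.11, Gabpa by -0.11 ± 0.12, Esrra by -0.05 ± 0.09, Yy1 by -0.09 ± 0.14 and Tfam, which packages and transcribes mitochondrial DNA, by 0.21 ± 0.22. The list of electron carriers and other respiratory enzymes had 5 of 9 genes lower (median -0.04). The list of adenine nucleotide and phosphate transport, which also held Vdac1, Ckmt1, Atpif1 and Ucp2, had 7 of 9 lower (median -0.07). Over all genes 53.4% were lower, with a median of -0.02. Ucp2, a relative of the uncoupling protein of brown fat, had the largest difference among the transport genes, at 0.46 ± 0.17 (limma adjusted p 0.561).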

How the data were processed

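Cerebellar RNA of 8 mice (500 ng per array) was measured on Agilent one-colour arrays. The deposited intensity values came from the scanner software, which the submitters' processing notes give as Agilent Feature Extraction 9.5. Its processed signal had the background already subtracted, per the file headers. The Illumina arrays of the series were not used here, since that table pairs its probes with no gene names.

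Control spots were left out, spots with an outlier flag (74 to 115 per array) were set to missing, spots of a probe were averaged, and log2 of the processed signal was taken relative to the 75th percentile of each array. Probes with signal well above background on 4 or more arrays were kept, and the probe with the highest mean signal stood for its gene. The genotype difference was fitted by lmFit and eBayes of limma 3.58.1 under R 4.3.3, two-sided and with no other factor, with Benjamini-Hochberg adjustment over 17984 genes and a threshold of 0.05. Fits were tested on simulated data. Lists and complexes were described by counts and medians without a test. Errors of differences are standard errors of the fit.

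Named members were those past the threshold, those whose genotypes did not overlap, the 2 highest and 2 lowest of each complex, and a fixed set of core subunits and isoforms, of which 1 is not reported here; probes, regulators and neighbouring genes named beside them were chosen after their values were seen. The members and lists were chosen with earlier results of these data known. Alternatives were another normalization, background correction, centring, filter, probe rule and naming, the slide, scan day or replicate number as a block, array weights, and leaving out each array. Deviations of same-numbered arrays correlated at 0.149, 0.038, -0.445 and 0.201, so the numbers were not taken as pairs. Arrays lay on 4 slides: wild-type replicate 4 was alone on slide 1, each genotype had 1 array on slides 2 and 4, and 2 mutants shared slide 3 with 1 wild type.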

Additional observations from a re-analysis of the deposited data

Results flagged for a closer look

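Of 88 groups of 4 arrays examined over the named members and the complex medians, 8 had 1 array far from the other 3. Independent groups would give about 1 in 20. These groups share the same 8 arrays, and some members were named for their values, so that rate cannot be set against the count. Among wild types the distant array was replicate 3 each time: the complex III median at 0.30 (next 0.04), Atp5j2 at 6.06 (next 5.44), Ndufa1 at 5.96 (next 5.55), Sdhd at 3.96 (next 3.63) and Cox7a2l at 3.13 (next 2.79). Among mutants it was replicate 4, for Sdhb at 4.23 (next 4.07), Uqcr at 5.71 (next 5.61) and Atp5c1 at 6.69 (next 6.49). Over all 80 members wild-type replicate 3 was a distant high array for 11 genes (13.8%, against 1.41% of all genes tested), and mutant replicate 4 for 4 (5.0%, against 1.11%).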

How the results depend on the processing

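No member passed the threshold in any setting, and the medians of the 5 complexes and of all members stayed below 0 in each. The number of members with a higher mean, 3 as reported, was 13 with quantile normalization, 15 with normexp and quantile normalization, 9 with array weights and 3 to 13 when each array was left out. The number of all genes past the limma threshold, 138 as reported, was 87 with quantile normalization, 75 with median centring, 59 without a filter, 89 with a filter on all 8 arrays, 38 with the slide as a block, 309 with array weights and 55 to 148 when each array was left out. With the replicate number as a block it was 27, no member was called, and 3 members were higher.

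Of 721 alternative values for the 38 named members, 28 turned the sign, in 9 genes. Quantile normalization gave Ndufa10 0.0488, Ndufv1 0.0482, Atp5g3 0.0057, Cox6a1 0.0482 and Cox7a2l 0.0517. Normexp with quantile normalization gave Ndufa10 0.1036, Ndufv1 0.0265, Ndufa9 0.0671, Cox5a 0.0520, Cox5b 0.0030 and Cox7a2l 0.0459. Atp5b turned to -0.0714 with median centring, a turn fixed by the scaling, which shifts every gene alike. The mean of probes gave Atp5b -0.0966 and Cox5a 0.1365. Array weights gave Ndufa10 0.0143, Ndufv1 0.0206, Cox6a1 0.0256 and Cox7a2l 0.0023. With each array left out, the range was -0.0406 to 0.0187 for Ndufa10, -0.0566 to 0.0225 for Ndufv1, -0.1348 to 0.0212 for Ndufa9, -0.0415 to 0.0694 for Cox6a1 and -0.0690 to 0.0746 for Cox7a2l. The cause was not tested. The probe that stood for each member was above background on all 8 arrays, and the part of background in these values was not tested.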
